A study of Mus musculus with 12 samples.

Results

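The 10 genes described here encode enzymes and regulators of arginine, nitric oxide and polyamine metabolism in mouse neutrophils: Nos2, Arg2, Odc1, Srm, Sms, Amd1, Oaz1, Azin1, Sat1 and Smox. They were chosen by gene name for their known roles, with their values in all 4 groups of these libraries already in view, so their differences are given as a description and support no conclusion by themselves. All 10 were found among the 13935 genes of the table, and all 10 were among the 13915 genes with a mean of at least 10 that were tested. Neutrophils had been flow sorted from femoral bone marrow by CD45, CD11b and Ly6G, and RNA was sequenced from 4 groups of 3 libraries. The groups were LysMcre Socs3fl/fl cells with G-CSF, Socs3fl/fl cells with G-CSF, LysMcre Socs3fl/fl cells without it and Socs3fl/fl cells without it, each kept for 8 h in RPMI with serum, with G-CSF at 10 ng/ml where given. Both genotypes carry the loxP-flanked Socs3 gene. The first also carries Cre driven by the lysozyme 2 locus, which is active in myeloid cells, and is called LysMcre here, the second floxed. Mouse strain, age and sex are not given in the labels, and the labels do not tell whether replicate libraries stem from different mice, so errors and p-values cover only the spread among these libraries, which may be technical.

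Arginine has several fates in a leukocyte. Nitric oxide synthases turn it into nitric oxide and citrulline, and arginases turn it into urea and ornithine. Ornithine decarboxylase makes putrescine from ornithine, and aminopropyl groups donated by decarboxylated S-adenosylmethionine then build spermidine and spermine. Ornithine decarboxylase is held down by antizyme, a protein whose own translation rises with polyamine levels, and antizyme is in turn bound by antizyme inhibitor. Polyamines are broken down by acetylation and by oxidases, of which spermine oxidase releases hydrogen peroxide. G-CSF acts on neutrophils through its receptor and STAT3, and Socs3 is a feedback inhibitor of that receptor. The series' title places the comparison in a study of neutrophil activation and reactive oxygen species in autoimmune encephalomyelitis.

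Values are the deposited normalized counts, that is, reads per gene scaled by 1 factor for each library, and libraries held 19495754 to 26472118 reads. Folds are ratios of group means, and log2 differences are fitted on log2(normalized count + 1), which understates changes of low genes. Socs3 itself did not show the deletion at the level of the whole gene: it had 37335 ± 1219 normalized counts in LysMcre and 19504 ± 1635 in floxed libraries with G-CSF, and 292 ± 34.5 in LysMcre and 225 ± 23.1 in floxed libraries without it (SD, n = 3 each). A gene total does not separate the floxed part of Socs3 from the rest, so whether it could show the loss is not known. Lyz2, the locus that carries Cre, had 569 normalized counts in LysMcre against 46227 in floxed libraries with G-CSF, and 6053 against 222593 without it. The titles of the 3 LysMcre libraries with G-CSF also contain the word for untreated, and those libraries were placed by their description, genotype and condition labels. Markers of the sorted cell were abundant, the 10 neutrophil markers summing to between 1332470 and 1965900 normalized counts in every library. Single markers of this list differed between the groups in both directions, as given below. Markers of other cells were also present: with G-CSF the 10 monocyte and macrophage markers summed to 14287 to 17548 in LysMcre and 16480 to 20544 in floxed libraries, and without it to 20527 to 23067 in LysMcre and 21290 to 22408 in floxed libraries. Of the macrophage markers, Mrc1, C1qa and C1qb averaged 13.7 to 36.5 normalized counts in each group. Other markers of that list were far higher, among them Csf1r and Ly6c2, whose values are given below. In bulk libraries fewer cells of a type and less RNA per cell cannot be told apart.

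Promoter sequences were in the RefSeq table (build GRCm38.p6) for 6 of the 10 genes, Smox, Odc1, Amd1, Oaz1, Sat1 and Sms. The windows of Smox, Odc1 and Amd1 are shown because these 3 genes were higher with G-CSF in both genotypes and higher in LysMcre than in floxed cells with G-CSF, and that of Oaz1 because it was lower with G-CSF in both genotypes. Each runs 5′ to 3′ on the strand of the gene, from 250 bases before to 50 bases after the annotated start. Capitals mark matches on either strand to 6 of 7 searched motifs: GGGCGG (GC box, bound by Sp1 family factors), CACGTG (E-box, bound by Myc and related factors), TGANTCA (AP-1), TTCNNNGAA (STAT type), TATAAA (the core box of many promoters) and the NF-kappaB consensus. The other, CCAAT, is left in lower case. Smox lies on the plus strand at chr2:131491612-131491911, Odc1 on the plus strand at chr12:17544623-17544922, Amd1 on the minus strand at chr10:40302139-40302438 and Oaz1 on the plus strand at chr10:80826406-80826705.
Smox: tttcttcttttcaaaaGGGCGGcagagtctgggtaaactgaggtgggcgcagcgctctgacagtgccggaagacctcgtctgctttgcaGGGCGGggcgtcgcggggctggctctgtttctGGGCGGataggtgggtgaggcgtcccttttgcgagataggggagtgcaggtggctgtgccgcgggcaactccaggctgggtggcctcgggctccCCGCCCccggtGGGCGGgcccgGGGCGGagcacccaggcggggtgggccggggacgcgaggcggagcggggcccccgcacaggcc
Odc1: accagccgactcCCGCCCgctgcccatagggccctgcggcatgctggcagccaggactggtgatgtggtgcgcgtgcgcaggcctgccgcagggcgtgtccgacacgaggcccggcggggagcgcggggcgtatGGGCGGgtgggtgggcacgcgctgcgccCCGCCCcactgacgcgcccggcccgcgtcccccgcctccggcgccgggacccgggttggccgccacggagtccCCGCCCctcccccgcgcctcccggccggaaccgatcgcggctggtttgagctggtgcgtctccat
Amd1: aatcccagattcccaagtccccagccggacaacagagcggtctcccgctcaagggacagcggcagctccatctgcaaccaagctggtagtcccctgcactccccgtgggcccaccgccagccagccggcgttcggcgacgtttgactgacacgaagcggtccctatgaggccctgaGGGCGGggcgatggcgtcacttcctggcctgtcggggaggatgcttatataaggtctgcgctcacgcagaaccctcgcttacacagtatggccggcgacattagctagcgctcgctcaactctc
Oaz1: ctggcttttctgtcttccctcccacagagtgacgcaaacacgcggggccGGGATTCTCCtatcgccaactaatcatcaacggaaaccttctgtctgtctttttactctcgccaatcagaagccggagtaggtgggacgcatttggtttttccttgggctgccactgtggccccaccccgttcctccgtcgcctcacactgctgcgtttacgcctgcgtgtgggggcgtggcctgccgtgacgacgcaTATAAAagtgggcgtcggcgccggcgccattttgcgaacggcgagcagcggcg
GGGCGG occurred 6 times in the Smox window, 4 times in that of Odc1 and 1 time in that of Amd1, and was not found in the Oaz1 window. Among the windows not shown, GGGCGG was also matched more than 1 time in that of Sat1 and in 1 Sms window. Of all 32851 RefSeq windows of this length, 35.7% held GGGCGG at least 1 time. The Oaz1 window held an NF-kappaB match from -201 to -192 and TATAAA from -3 to 2 relative to the start, motifs found in 4.5% and 13.6% of windows. An NF-kappaB match also lay in 1 Sms window, from -103 to -94. TTCNNNGAA, found in 8.3% of windows, and TGANTCA, found in 7.81%, had no match in the 7 windows of these genes, where Sms has 2 annotated starts. CACGTG, found in 7.15% of windows, was matched in 1 Sms window. CCAAT, found in 37.4% of windows, was matched in the Oaz1 window from -140 to -136 and in 1 Sms window. G and C made up 78.0% of the Odc1, 71.0% of the Smox, 63.0% of the Amd1 and 60.0% of the Oaz1 window, against a median of 52.7% over all windows with quartiles of 45.7% and 61.7%.

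With G-CSF, LysMcre cells held more transcript than floxed cells from 6 of the 10 genes: the nitric oxide synthase Nos2, the arginase Arg2, the decarboxylases Odc1 and Amd1, the antizyme inhibitor Azin1 and the spermine oxidase Smox. The difference was 4.39-fold for Nos2 and between 1.27-fold and 1.78-fold for the other 5. Sms, Oaz1 and Sat1 had overlapping libraries in the 2 genotypes. In the fit over all genes, which used limma on log2(normalized count + 1) with Benjamini-Hochberg adjustment at 0.05, these 6 passed as higher and 0 passed as lower, where 17.1% of all genes passed as higher and 18.9% as lower. Libraries of the 2 genotypes did not overlap for 7 of the 10 genes, the 6 above and Srm, with LysMcre above in each; of all genes tested, 22.4% had all LysMcre libraries above and 23.1% all below the floxed ones. The median log2 difference of the 10 was 0.47, beside -0.01 over all genes tested.

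Without G-CSF the genotypes were close. For 9 of the 10 genes the libraries overlapped and the log2 difference lay between -0.07 and 0.31. Most genes overlapped here: of all genes tested, 3.93% had all LysMcre libraries above and 5.40% all below the floxed ones. Nos2 was the only member to pass as higher and 0 passed as lower, where 0.0647% of all genes passed as higher and 0.0503% as lower. That call rests on 6, 4 and 4 reads in LysMcre against 1, 1 and 2 reads in floxed libraries. It was lost under a pseudocount of 4, under quantile normalization, in edgeR and DESeq2, with only these 2 groups in the fit and without any 1 of 7 of the 12 libraries.

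G-CSF went with higher levels of 7 of the 10 genes in both genotypes. These were Smox, Srm, Arg2, Odc1, Azin1, Amd1 and Nos2, and Oaz1 alone passed as lower. In LysMcre cells 31.1% of all genes passed as higher with G-CSF and 31.6% as lower, and in floxed cells 24.1% and 24.6%. The median log2 difference of the 10 genes was 1.67 in LysMcre cells and 1.06 in floxed cells, beside -0.00 and 0.00 over all genes. The comparisons with and without G-CSF and between genotypes share libraries, so their counts are not independent of each other.

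**Figure D1:**
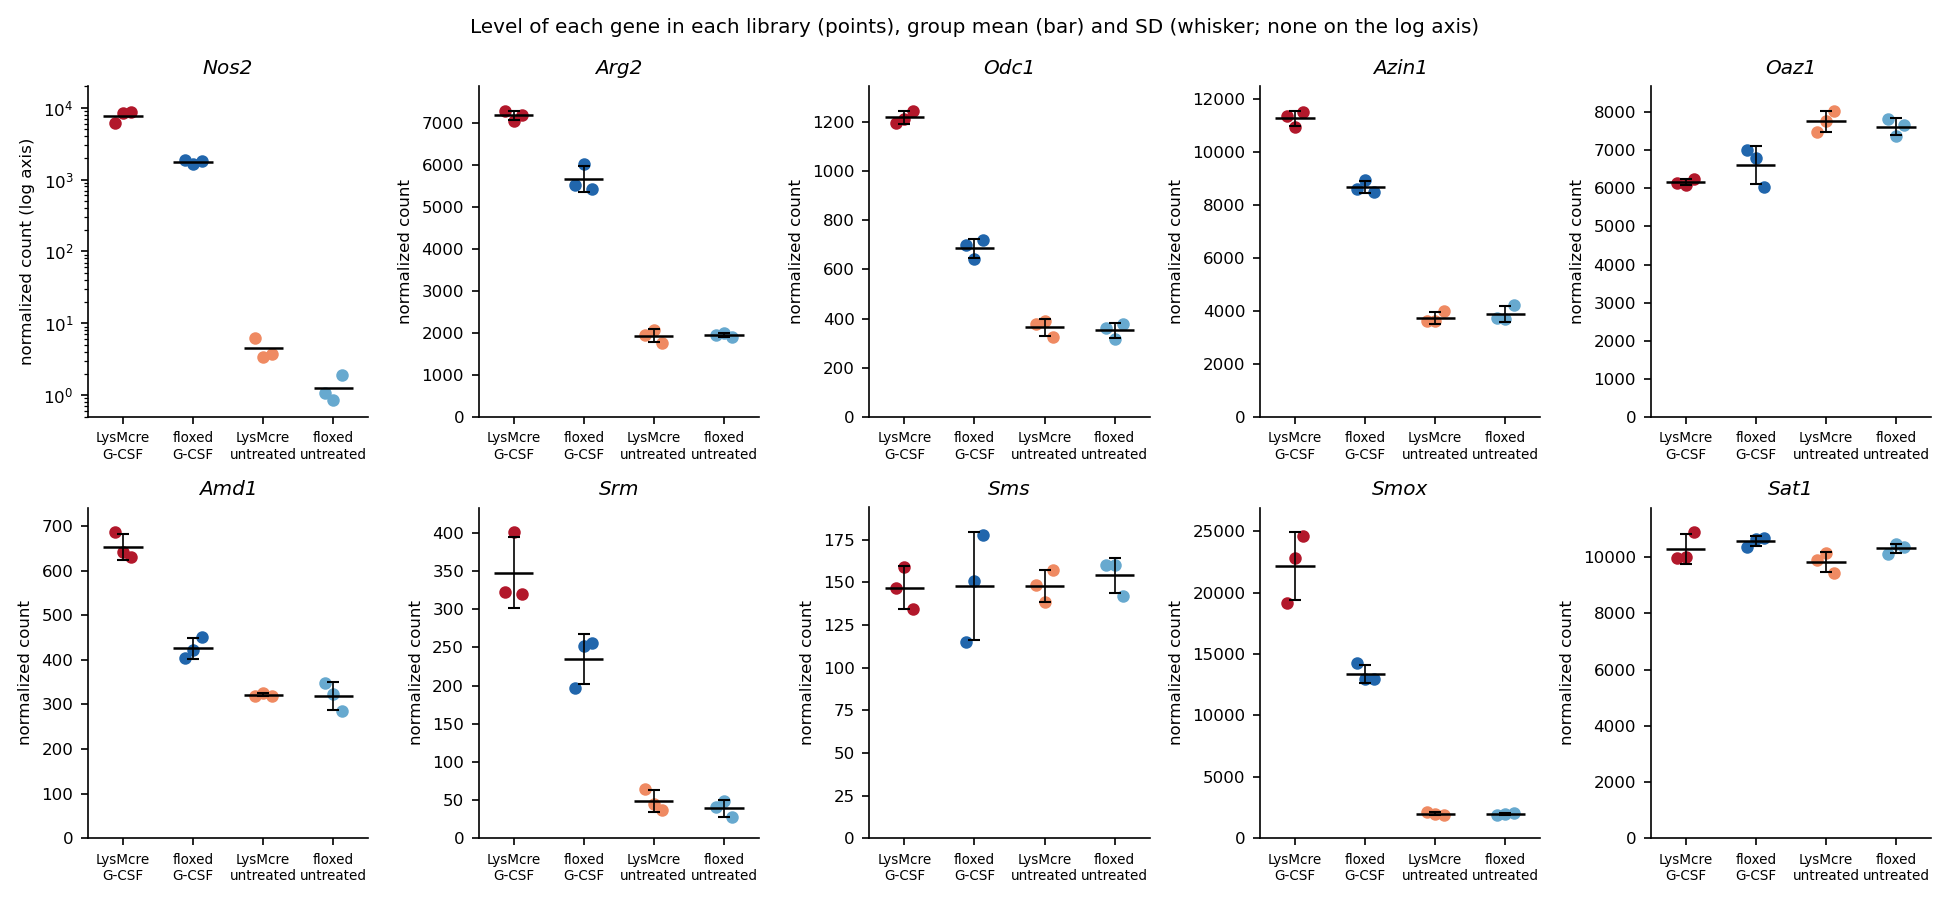
Normalized counts of the 10 genes (vertical axis, linear from 0 except for Nos2, which has a log axis) in the 12 libraries, grouped along the horizontal axis by genotype and G-CSF. Points are libraries, bars group means and whiskers 1 SD (n = 3); the LysMcre libraries with G-CSF lie above all floxed libraries with G-CSF for Nos2, Arg2, Odc1, Azin1, Amd1, Srm and Smox.

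Nos2 encodes inducible nitric oxide synthase, the isoform that cytokines and microbial products switch on in myeloid cells. It lies on the plus strand of chromosome 11, from 78920787 to 78960254 (mm10), with 4412 exonic bases. Its normalized counts were 6156, 8533 and 8608 in LysMcre libraries with G-CSF and 1846, 1639 and 1817 in floxed libraries with G-CSF. Without G-CSF they were 6.31, 3.44 and 3.71 in LysMcre and 1.07, 0.857 and 1.88 in floxed libraries. With G-CSF every LysMcre library was more than 3 times as high as every floxed library, and without it the gene was near the limit of detection, since 3 reads were worth 2.57 to 3.54 normalized counts. The mean with G-CSF was 7766 ± 1395 in LysMcre and 1767 ± 112 in floxed libraries (SD, n = 3 each), a 4.39-fold difference and a log2 difference of 2.12 with a standard error of 0.21. Replicate 1 of the LysMcre libraries was the lowest of its 3.

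A fold change of Nos2 with G-CSF depends on a handful of reads without it. Pooled over the 3 libraries and scaled by depth, 20579 reads with G-CSF stood against 14 reads without it in LysMcre cells, a ratio of 1774 with an exact 95% interval of 1057 to 3245. In floxed cells 5506 reads stood against 4 reads, a ratio of 1394 with an exact interval of 544 to 5120. These intervals cover counting error only. Without G-CSF, 14 reads in LysMcre stood against 4 in floxed cells, a ratio of 3.48 with an interval of 1.09 to 14.5. Nos2 had the largest fitted log2 difference with G-CSF of all 13915 genes in both genotypes, and ranked 1 or 2 under pseudocounts of 4 and 0.25, in edgeR and in DESeq2. The intervals of the ratios in the 2 genotypes overlap.

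Arg2 encodes the mitochondrial arginase, which competes with nitric oxide synthase for arginine and yields the ornithine from which polyamines are made. It lies on the plus strand of chromosome 12, from 79130777 to 79156301. Its normalized counts were 7294, 7066 and 7209 in LysMcre and 5539, 6038 and 5441 in floxed libraries with G-CSF. Without G-CSF they were 1955, 2076 and 1769.6 in LysMcre and 1953, 1992 and 1909.5 in floxed libraries. The genotypes were separate with G-CSF and overlapped without it. The difference with G-CSF was 1.27-fold (log2 difference 0.34, standard error 0.06), and G-CSF went with 3.72-fold higher levels in LysMcre and 2.91-fold higher levels in floxed cells. The 3′ end of Arg2 overlaps Vti1b on the opposite strand, and the strand setting of the counting is not given in the sources used here; part of either count may belong to the other gene. Vti1b had 1770.0 normalized counts in LysMcre against 1564 in floxed libraries with G-CSF, and 1136 against 1133 without it.

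Odc1 encodes ornithine decarboxylase, the rate-limiting enzyme of polyamine synthesis, whose GC-rich promoter is printed above. It lies on the plus strand of chromosome 12, from 17544794 to 17551505. Normalized counts of Odc1 were 1194, 1214 and 1246 in LysMcre and 698, 643 and 718 in floxed libraries with G-CSF. The untreated libraries held 379, 389 and 323 in LysMcre and 361, 315 and 377 in floxed cells. LysMcre libraries with G-CSF were thus the highest 3 of the 12, floxed libraries with G-CSF came next, and the 6 untreated libraries were intermixed. The genotype difference with G-CSF was 1.78-fold (log2 difference 0.83, standard error 0.08). G-CSF went with 3.35-fold higher levels in LysMcre and 1.95-fold higher levels in floxed cells.

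The antizyme gene Oaz1 and the inhibitor gene Azin1 moved in opposite directions with G-CSF. Oaz2, a second antizyme, passed as higher with G-CSF, as Azin1 did, at a log2 difference of 0.33 in LysMcre and 0.66 in floxed cells. Azin1, the inhibitor, binds antizyme and so frees ornithine decarboxylase; it lies on the minus strand of chromosome 15, from 38487427 to 38519266. Azin1 had 11378, 10949 and 11507 normalized counts in LysMcre and 8603, 8951 and 8503 in floxed libraries with G-CSF. Without G-CSF it had 3608, 3604 and 4001 in LysMcre and 3746, 3691 and 4220.0 in floxed libraries. The genotypes were separate with G-CSF, by 1.30-fold (log2 difference 0.38, standard error 0.06), and overlapped without it. With G-CSF the level was 3.02-fold higher in LysMcre and 2.23-fold higher in floxed cells.

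Oaz1 encodes antizyme 1, which targets ornithine decarboxylase for degradation; it lies on the plus strand of chromosome 10, from 80826656 to 80829290. Oaz1 had 6129, 6101 and 6257 normalized counts in LysMcre and 7002, 6794 and 6041 in floxed libraries with G-CSF. Untreated libraries had 7479, 7771 and 8042 in LysMcre and 7823, 7379 and 7659 in floxed cells. All 6 libraries with G-CSF were below all 6 without it, and the genotypes overlapped in both conditions. Oaz1 fell by 0.33 on the log2 scale with G-CSF in LysMcre cells and by 0.21 in floxed cells (standard error 0.06 each). The log2 difference between genotypes with G-CSF was -0.10 with a 95% interval of -0.22 to 0.02. It did not pass as reported, but passed as lower at -0.22 when all libraries were brought to the same total, at -0.20 after quantile normalization and at -0.16 without floxed replicate 3 with G-CSF. A processed pseudogene, Oaz1-ps, is also in the table, at 138 normalized counts in LysMcre and 128 in floxed libraries with G-CSF, and at 170 and 175 in LysMcre and floxed libraries without it. How reads that match both copies were counted is not known.

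Amd1 encodes S-adenosylmethionine decarboxylase, which makes the aminopropyl donor for spermidine and spermine, and lies on the minus strand of chromosome 10, from 40287458 to 40302186. Its normalized counts were 687, 642 and 631 in LysMcre and 405, 422 and 451 in floxed libraries with G-CSF. Without G-CSF they were 319.7, 326 and 319 in LysMcre and 347, 323 and 285 in floxed libraries. Only with G-CSF were the genotypes separate, by 1.53-fold (log2 difference 0.62, standard error 0.08). G-CSF went with a 2.03-fold higher level in LysMcre and a 1.34-fold higher level in floxed cells. The mouse genome carries a near-identical copy of this gene, Amd2, and reads of the copies could have been counted with either.

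The synthases that use that donor differed from each other. Srm, spermidine synthase, lies on chromosome 4 from 148591503 to 148594993 and had 322, 401 and 319.9 normalized counts in LysMcre and 197, 251 and 256 in floxed libraries with G-CSF. Its untreated libraries had 65.2, 44.7 and 37.1 in LysMcre and 41.6, 48.8 and 27.3 in floxed cells. All libraries with G-CSF exceeded all libraries without it, by 7.10-fold in the means of LysMcre and 5.99-fold in those of floxed cells. Between genotypes with G-CSF the 3 LysMcre libraries lay above the 3 floxed libraries, by 1.48-fold, but the log2 difference of 0.57 with a standard error of 0.22 did not pass. It passed in 10 of 22 alternatives, edgeR and DESeq2 on the recovered reads among them.

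Sms, spermine synthase, lies on chromosome X from 157443855 to 157492287. It was low and flat, with 147, 159 and 134 normalized counts in LysMcre and 115, 151 and 178 in floxed libraries with G-CSF, and 148, 138 and 157 in LysMcre and 159.9, 160.2 and 142 in floxed libraries without it. The 4 groups overlapped. Its log2 difference with G-CSF was -0.01 in LysMcre cells, with a 95% interval of -0.32 to 0.29, and -0.08 in floxed cells, with an interval of -0.38 to 0.22, so that a rise of the size of Srm was outside both intervals.

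Smox encodes spermine oxidase, which converts spermine back to spermidine and releases hydrogen peroxide, and lies on the plus strand of chromosome 2, from 131491496 to 131525922. It had 19140.4, 22786 and 24572 normalized counts in LysMcre and 14247, 12981 and 12957 in floxed libraries with G-CSF. Without G-CSF it had 2139, 1979.6 and 1867 in LysMcre and 1915, 1963 and 2090.2 in floxed libraries. The genotypes did not overlap with G-CSF and were intermixed without it. The difference with G-CSF was 1.65-fold (log2 difference 0.72, standard error 0.08). With G-CSF the level was 11.1-fold higher in LysMcre and 6.73-fold higher in floxed cells, the largest such folds of the 10 genes after Nos2.

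Sat1 encodes spermidine and spermine acetyltransferase, the gatekeeper of the other route of polyamine breakdown, and lies on the minus strand of chromosome X, from 155213132 to 155216449. Its normalized counts were 9957, 10024 and 10896 in LysMcre and 10361, 10658 and 10672 in floxed libraries with G-CSF. They were 9895, 10164 and 9430.3 in LysMcre and 10130.4, 10456 and 10366 in floxed libraries without it. The genotypes overlapped in both conditions, and libraries with and without G-CSF overlapped in both genotypes. Its log2 difference with G-CSF was 0.07 in LysMcre cells and 0.03 in floxed cells, neither of which passed, and it turned to -0.20 in LysMcre cells when all libraries were brought to the same total and to -0.33 in LysMcre and -0.22 in floxed cells after quantile normalization, where it passed as lower. Between genotypes with G-CSF its log2 difference was -0.04 and did not pass, but it passed as lower at -0.16 with equal totals and at -0.14 after quantile normalization.

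**Figure D2:**
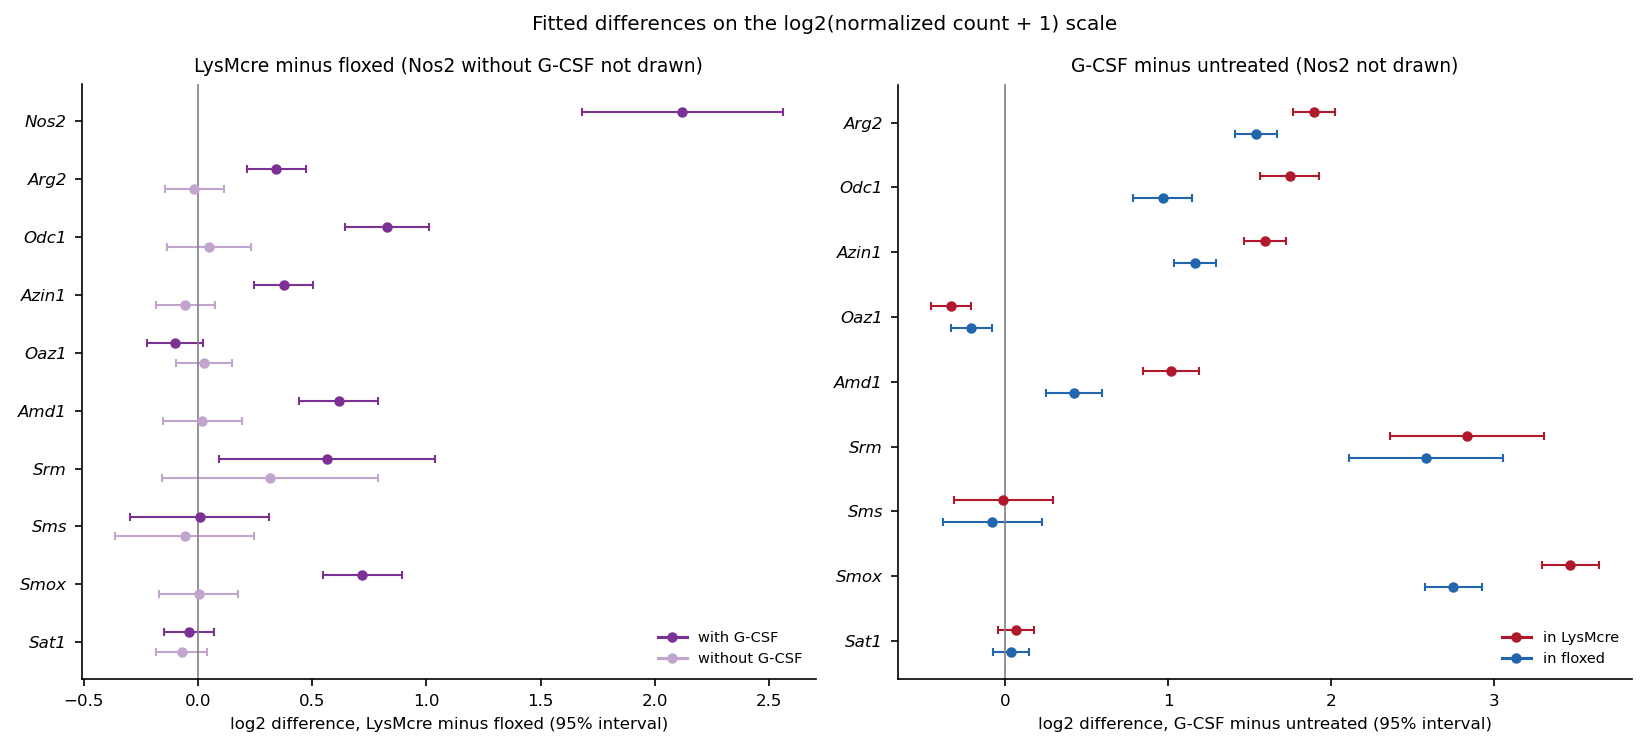
Fitted log2 differences of the 10 genes with 95% intervals (horizontal axis), between LysMcre and floxed cells (left panel) and between cells with and without G-CSF (right panel); Nos2 is left out where untreated cells held 1 to 6 reads. With G-CSF the intervals of Nos2, Arg2, Odc1, Azin1, Amd1, Srm and Smox lie above 0 between genotypes, and without it the intervals of the 9 genes drawn include 0.

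The genotypes' responses to G-CSF were compared in the same fit by the difference between their log2 differences. It was 0.78 for Odc1 (standard error 0.12), 0.72 for Smox (0.12), 0.60 for Amd1 (0.11), 0.43 for Azin1 (0.09) and 0.36 for Arg2 (0.08), each larger in LysMcre cells. Nos2 also passed at 0.86 (0.29), but this value rests on the few untreated reads and did not pass in 14 alternatives, where it lay between 0.34 and 0.91. In all, 6 members passed with a larger response in LysMcre cells and 0 with a smaller one, where 10.9% of all genes passed in the first direction and 11.5% in the second. Arg2 did not pass with equal totals, at 0.19, or after quantile normalization, at 0.17. Srm, at 0.25 with a 95% interval of -0.42 to 0.92, Sms at 0.07, Sat1 at 0.03 and Oaz1 at -0.13 did not pass. Oaz1 passed as lower at -0.29 with equal totals and at -0.27 after quantile normalization.

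The scale of the libraries matters for these counts. When all libraries were brought to the same total instead of the deposited factors, the median log2 difference of all genes moved to -0.13 for genotype with G-CSF, -0.26 for G-CSF in LysMcre cells, -0.09 for G-CSF in floxed cells and -0.18 for the difference between responses. Of all genes that passed, those that passed as higher then made up 28.2% in place of 47.5% for genotype with G-CSF, and 31.2% in place of 49.6% for G-CSF in LysMcre cells. For G-CSF in floxed cells the share was 38.5% in place of 49.5%, and for the difference between responses 23% in place of 48.6%. Nos2, Arg2, Odc1, Azin1, Amd1 and Smox still passed as higher with G-CSF in LysMcre than in floxed cells under that scaling, and Oaz1, at -0.22, and Sat1, at -0.16, then passed as lower.

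Levels were set side by side per kilobase, dividing each normalized count by the length of all annotated exons of the gene (GENCODE mouse release M21, mm10). A transcript may use only part of these exons, so the order of genes per kilobase depends on the lengths taken. In LysMcre cells with G-CSF, Smox came first at 5692 normalized counts per kb, followed by Arg2 at 5035, Sat1 at 3710.3, Oaz1 at 2409, Azin1 at 1803 and Nos2 at 1760.1. Odc1 at 358, Srm at 218, Amd1 at 184 and Sms at 24.4 were lower. The ranges of Smox and Arg2 overlapped, as did those of Azin1 and Nos2. In floxed cells with G-CSF, Arg2 led at 3972, before Sat1 at 3808 and Smox at 3440, and Nos2 stood at 401. The ranges of Arg2 and Sat1 overlapped there, and so did those of Srm at 147 and Amd1 at 120.3.

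Without G-CSF the order was different and nearly the same in both genotypes. In LysMcre cells Sat1 came first at 3544 per kb, before Oaz1 at 3035, Arg2 at 1354, Azin1 at 597 and Smox at 512, and then Odc1 at 107, Amd1 at 90.8, Srm at 30.7, Sms at 24.6 and Nos2 at 1.02. In floxed cells the values were 3719 for Sat1, 2979 for Oaz1, 1366 for Arg2, 621 for Azin1 and 511 for Smox, and 103 for Odc1, 89.9 for Amd1, 25.6 for Sms, 24.5 for Srm and 0.287 for Nos2. Ranges of Srm and Sms overlapped in both genotypes. Among 13513 genes with a length, Nos2 went with G-CSF to rank 642 from the top in LysMcre and 2382 in floxed cells, against rank 13432 in LysMcre and 13493 in floxed cells without it.

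Ratios of such levels within a library do not depend on the scaling of the libraries. Nos2 per Arg2 was 0.350 ± 0.067 in LysMcre and 0.101 ± 0.012 in floxed libraries with G-CSF, and below 0.0011 in every library without it. Odc1 per Oaz1 was 0.148 ± 0.0019 in LysMcre and 0.0784 ± 0.0096 in floxed libraries with G-CSF, against 0.0353 ± 0.0044 and 0.0346 ± 0.0025 in LysMcre and floxed libraries without it. Both ratios were separate between genotypes with G-CSF. Azin1 per Oaz1 was 0.748 ± 0.013 in LysMcre and 0.539 ± 0.037 in floxed libraries with G-CSF, and 0.197 ± 0.0069 in LysMcre and 0.209 ± 0.015 in floxed libraries without it.

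Smox per Sat1 set the oxidase beside the acetyltransferase. It was 1.53 ± 0.14 in LysMcre and 0.904 ± 0.065 in floxed libraries with G-CSF, and 0.145 ± 0.0082 in LysMcre and 0.137 ± 0.0055 in floxed libraries without it. Per kilobase, Smox thus exceeded Sat1 in the 3 LysMcre libraries with G-CSF and was below it in the other 9. This order depends on the exon lengths used. In plain normalized counts Smox exceeded Sat1 also in floxed cells with G-CSF, at a mean of 13395 against 10564. Srm per Sms was 8.89 ± 0.61 in LysMcre and 6.05 ± 0.56 in floxed libraries with G-CSF, against 1.25 ± 0.38 in LysMcre and 0.948 ± 0.21 in floxed libraries without it (SD, n = 3 each). Odc1 per Azin1 was 0.199 ± 0.0055 in LysMcre and 0.145 ± 0.012 in floxed libraries with G-CSF, and 0.180 ± 0.027 and 0.166 ± 0.010 in LysMcre and floxed libraries without it. Libraries of the genotypes overlapped in Srm per Smox, which was 0.0385 ± 0.0060 in LysMcre and 0.0430 ± 0.0081 in floxed libraries with G-CSF, and 0.0592 ± 0.013 and 0.0484 ± 0.015 in LysMcre and floxed libraries without it.

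**Figure D3:**
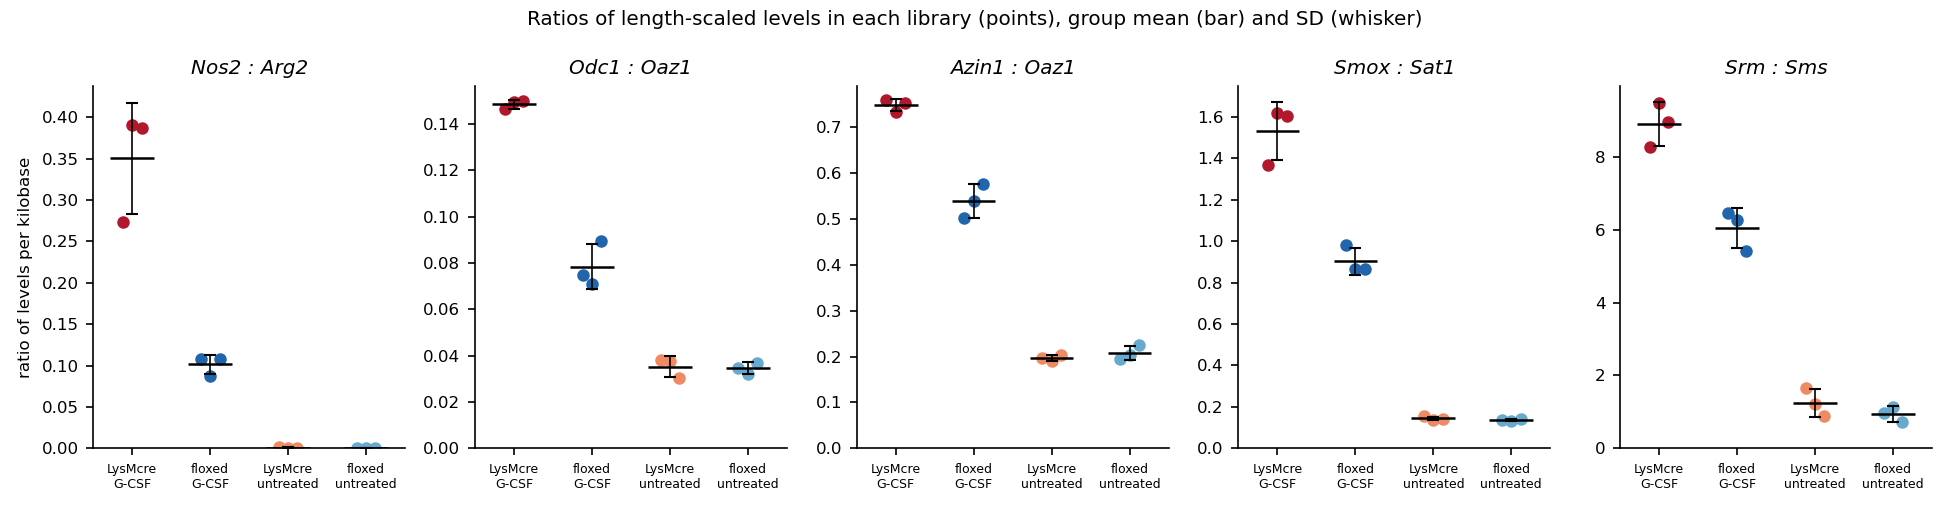
Ratios of levels per kilobase (vertical axes, each from 0) in each library, for 5 of the 7 pairs of genes in the text, by genotype and G-CSF (horizontal axis); points are libraries, bars means and whiskers 1 SD (n = 3). In each of these 5 panels the LysMcre libraries with G-CSF lie above the floxed libraries with G-CSF, and Smox per Sat1 passes 1 in the LysMcre libraries with G-CSF, at a mean of 1.53.

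Genes whose levels followed these most closely over the 12 libraries are given as a description, since the 4 groups fix most of such a correlation: 1068 of 10009 genes had r above 0.95 with Nos2, 1097 with Arg2 and 1041 with Odc1. Closest to Nos2 on the log2 scale were Ahr (r = 0.999), Csf2rb2, Rhobtb2, Zfp36l1 and Socs3 (r = 0.997). Ahr had 703 normalized counts in LysMcre and 363 in floxed cells with G-CSF, and 32.0 and 20.8 in LysMcre and floxed cells without it. Closest to Arg2 were Picalm, Tbc1d14, Nlrp12, Tpd52 and Cxcr1, and closest to Odc1 were Med13, Cxcl2, Ergic2, Ccar1 and Uspl1. Cxcl2 had 13338 normalized counts in LysMcre against 1578 in floxed cells with G-CSF, and 167 against 141 without it.

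The wider pathway was read from 54 other genes of arginine transport and synthesis, proline, nitric oxide cofactor, polyamine turnover, methionine and hypusine metabolism, 40 of them in the table. These lists too were chosen with earlier results of these data known. Their counts and adjusted p-values are therefore a description and support no conclusion by themselves. With G-CSF, 9 of the 40 were higher and 6 lower in LysMcre than in floxed cells, and the median log2 difference of the 40 was 0.15. The 9 include Arg1, which reached the tested genes only through the LysMcre libraries with G-CSF. When all libraries were brought to the same total, 6 of the 40 were higher and 7 lower. Under that scaling 5471 of all 13915 genes passed, 1542 of them as higher. Without G-CSF 0 of the 40 passed in limma, edgeR or DESeq2. An unadjusted limma p under 0.05 was found for 2 of the 40, and for 465 of all 13915 genes. G-CSF raised 21 and lowered 8 in LysMcre cells, and raised 17 and lowered 7 in floxed cells. The counts under the deposited scaling stand beside the shares of all genes given above.

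Of the 4 arginine transport genes, 2 were higher in LysMcre cells with G-CSF, where 17.1% of all genes were, and the other 2 did not pass. Slc3a2, the heavy chain (CD98) that pairs with several amino acid exchangers, had 9667, 9908 and 10369 normalized counts in LysMcre against 3451, 3323 and 3259.6 in floxed libraries with G-CSF. The 2.98-fold difference (log2 difference 1.58, standard error 0.06) had an adjusted p of 1.9e-10 in limma. It had 1858, 1634 and 1562 in LysMcre and 1539, 1602 and 1533 in floxed libraries without G-CSF. Slc7a6, a light chain that pairs with it to exchange arginine, was 1.92-fold higher in LysMcre cells with G-CSF, at 270.3 against 141 normalized counts (adjusted p = 0.000509 in limma). Slc7a1, the cationic amino acid transporter, did not pass between genotypes, at 1001 ± 130.1 in LysMcre and 822 ± 57.9 in floxed libraries, and neither did Slc7a7, at 189 against 178.

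Enzymes of proline and ornithine moved both ways. Aldh18a1, which makes pyrroline-5-carboxylate from glutamate, was 2.18-fold higher in LysMcre than in floxed cells with G-CSF, at 1498 ± 31.9 against 686 ± 9.1 normalized counts (adjusted p = 2.07e-07 in limma). Aldh4a1, which oxidizes pyrroline-5-carboxylate back to glutamate, was lower, at 155 ± 18.4 against 276 ± 51.2 (log2 difference -0.82, adjusted p = 5.89e-05). Oat, which links ornithine to the same intermediate, was 854 ± 91.0 in LysMcre against 1142 ± 38.0 in floxed cells (log2 difference -0.42, adjusted p = 0.00706 in limma). Of the 8 genes of this list, 3 were higher and 2 lower in LysMcre cells with G-CSF, where 17.1% of all genes were higher and 18.9% lower.

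Polyamine turnover and hypusine, the spermidine-derived residue of translation factor eIF5A, gave the other named differences. Atp13a2, a lysosomal polyamine exporter, had 3887 ± 20.8 normalized counts in LysMcre against 5959 ± 714 in floxed cells with G-CSF (log2 difference -0.61, adjusted p = 7.12e-06 in limma), and with G-CSF it rose 1.39-fold in LysMcre and 2.25-fold in floxed cells. Eif5a was 1.56-fold higher in LysMcre cells with G-CSF, at 10234 ± 315 against 6556 ± 279 (adjusted p = 1.21e-06), while Dhps, the deoxyhypusine synthase that modifies its product, was lower at 273 ± 9.7 against 356 ± 7.3 (log2 difference -0.38, adjusted p = 0.00125).

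Apart from Arg1, the genes of these lists with the largest G-CSF responses passed in the same direction in both genotypes. Arg1 fell outside the naming rule, did not pass in floxed cells and is described below. Gatm, which turns arginine and glycine into the creatine precursor, was 5.49-fold higher with G-CSF in LysMcre cells, at 841 against 153 normalized counts, and 4.71-fold higher in floxed cells, at 750.0 against 159 (adjusted p = 1.19e-10 and 8.05e-10 in limma). The difference between those responses did not pass (0.20 on the log2 scale, standard error 0.18). Aldh18a1 rose 6.86-fold with G-CSF in LysMcre and 3.64-fold in floxed cells. Slc3a2 rose 5.92-fold in LysMcre and 2.15-fold in floxed cells, Slc7a6 rose 3.19-fold and 1.87-fold, and Oat rose 1.93-fold and 2.63-fold in LysMcre and floxed cells. Lower with G-CSF in both genotypes were Aldh4a1, the oxidase of acetylated polyamines Paox, the exchanger light chain Slc7a7, the argininosuccinate lyase Asl, which regenerates arginine from citrulline, and the polyamine transporter Atp13a3. Aldh4a1 had 155 normalized counts with G-CSF against 459 without it in LysMcre cells, and 276 against 451 in floxed cells. Paox had 78.6 against 181 in LysMcre and 90.4 against 145 in floxed cells. Slc7a7 had 189 against 368 in LysMcre and 178 against 338 in floxed cells. Asl had 421 against 761 in LysMcre and 539.9 against 775 in floxed cells. Atp13a3 had 1304 against 1598 in LysMcre (adjusted p = 0.00945 in limma) and 1128 against 1653 in floxed cells (adjusted p = 7.32e-05 in limma). Of the 8 genes of the methionine and methylthioadenosine list, which supplies and salvages the aminopropyl donor, 5 passed as higher with G-CSF in LysMcre and 4 in floxed cells, and 0 passed as lower in either, where 31.1% and 24.1% of all genes passed as higher and 31.6% and 24.6% as lower.

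Outside the naming rule, 2 genes of the pathway were picked after their values were seen. Arg1, the cytosolic arginase best known from macrophages and liver, had 53.2, 31.8 and 29.0 normalized counts in LysMcre against 2.17, 9.63 and 14.1 in floxed libraries with G-CSF. It had 4.21, 1.72 and 4.64 in LysMcre and 4.26, 6.00 and 1.88 in floxed libraries without G-CSF. The log2 difference between genotypes with G-CSF was 2.24. Arg1 met the minimum mean of 10 only through the LysMcre libraries with G-CSF, which averaged 38.0, so its calls are not given as support. They are nonetheless part of the counts of the 40 genes, between genotypes with G-CSF, with G-CSF in LysMcre cells and between responses. Its log2 difference with G-CSF was the largest of the 40 genes in LysMcre cells, at 3.13, and was 0.75 in floxed cells, where it did not pass. Gch1, which makes the tetrahydrobiopterin cofactor of nitric oxide synthases, had 483, 556 and 595 normalized counts in LysMcre against 412, 308 and 361 in floxed libraries with G-CSF. The log2 difference was 0.60 with a standard error of 0.10.

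**Figure D4:**
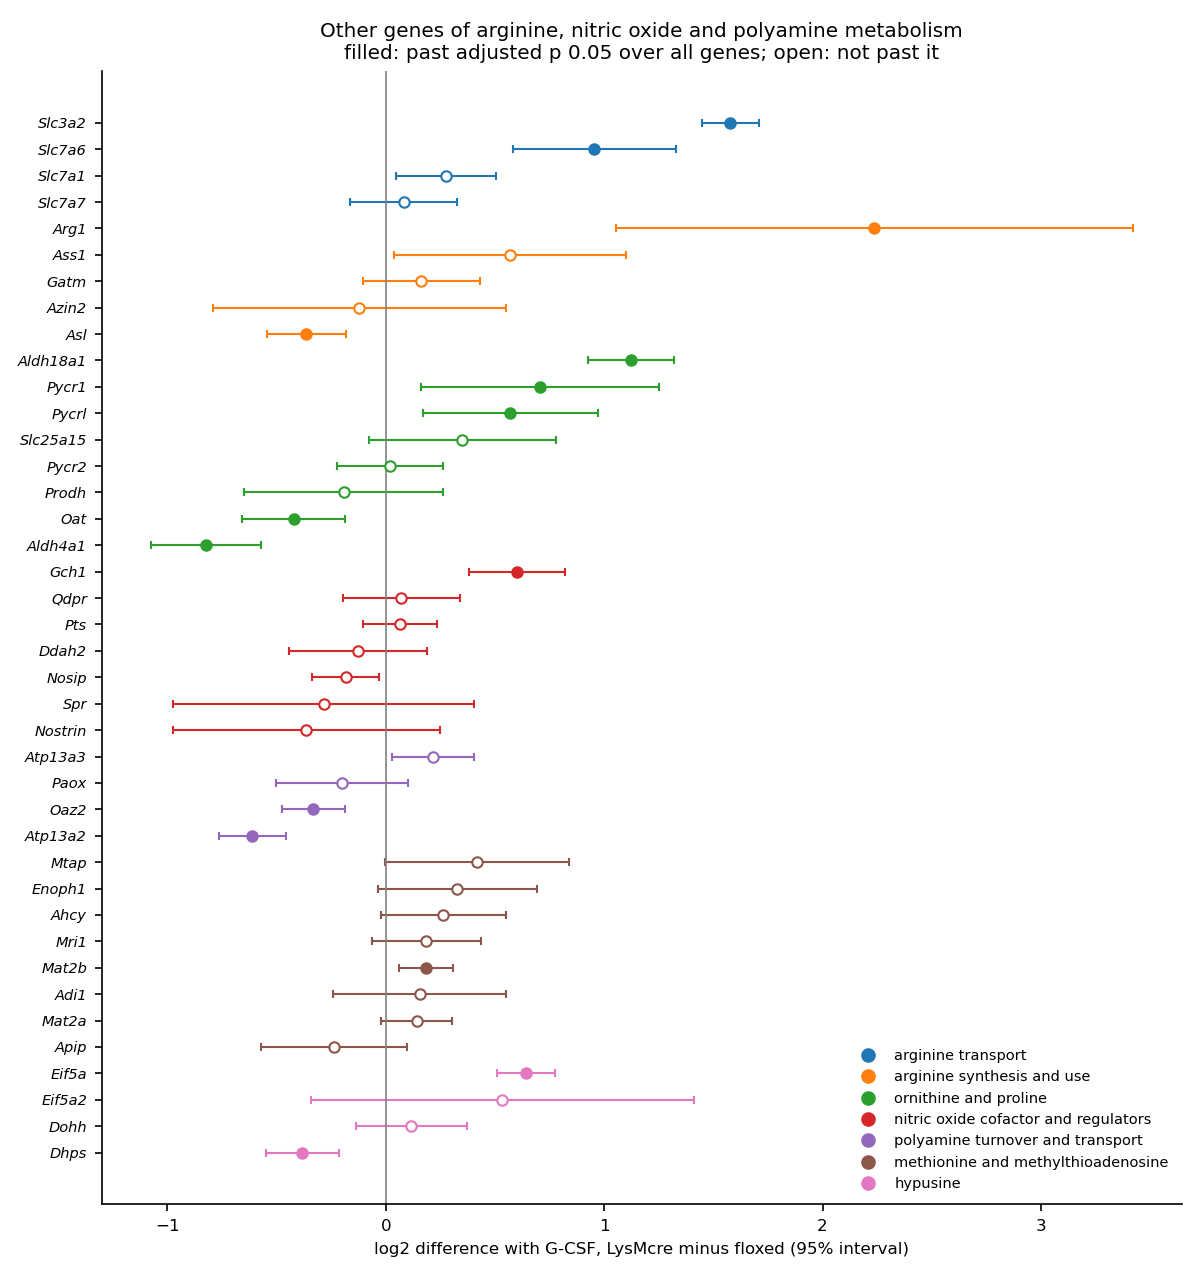
Log2 differences with G-CSF between LysMcre and floxed cells (horizontal axis, with 95% intervals) for the 40 other pathway genes, ordered by list and coloured by it; filled points passed an adjusted p of 0.05 over all genes. Slc3a2 at 1.58, Arg1 at 2.24 and Aldh18a1 at 1.13 lie farthest to the right and Aldh4a1 at -0.82 farthest to the left. The filled point of Arg1 is not given as support.

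With G-CSF against without it, 5 of the 10 neutrophil markers passed as higher and 4 as lower in each genotype. Of all genes, 31.1% passed as higher and 31.6% as lower in LysMcre cells, and 24.1% and 24.6% in floxed cells. Markers were then set beside the genotype difference with G-CSF. Of the neutrophil markers, 2 passed as higher and 4 as lower in LysMcre cells, where 17.1% and 18.9% of all genes did. Among the monocyte and macrophage markers, Ly6c2 was lower in LysMcre cells, at 2254 against 4871 normalized counts, and Csf1r, at 6286 against 7473, did not pass. The list went both ways: of its 10 markers 1 passed as higher, 1 as lower and 8 did not pass. Their median log2 difference was 0.18. The 7 stromal, endothelial and platelet markers summed to 1925 to 2336 in LysMcre and 1224 to 1623 in floxed libraries with G-CSF, of which Pecam1, at 1326 against 701, and Col1a1, at 81.1 against 36.6, passed as higher. The other 5 did not pass, with Cdh5 at 19.6 against 23.9, Cxcl12 at 14.9 against 16.6, Pf4 at 64.4 against 61.5, Itga2b at 511 against 473 and Ppbp at 107 against 92.7. The 6 B cell markers summed to 10018 to 16827 in LysMcre and 6737 to 10290.0 in floxed libraries with G-CSF. Of these, 1 passed as higher and 5 did not pass, with a median log2 difference of -0.07. Without G-CSF they summed to 11646 to 17653 in LysMcre and 8524 to 12180 in floxed libraries. With G-CSF the 6 progenitor markers summed to 15221 to 16991 in LysMcre and 12899 to 16635 in floxed libraries, against 10619 to 10936 in LysMcre and 7246 to 12908 in floxed libraries without it. Between genotypes with G-CSF the members of that list went both ways: Kit at 6166 against 2933 and Cd34 at 277 against 211 passed as higher in LysMcre cells, Myb at 795 against 996 passed as lower, and Elane at 1897 against 2249, Mpo at 4866 against 5968 and Prtn3 at 2286 against 2703 did not pass. The part of these markers in the differences above was not tested.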

How the data were processed

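The deposited table holds a signal, gene counts that the authors divided by 1 size factor per library, as read from the values: at a tolerance of 0.01 read, 100.0% were whole reads of their library. The genome build was mm10 per the submitters' processing notes, and the sources used here do not give the tools, annotation or strand handling. Of 13935 rows, 20 with a mean under 10 were left out. log2(value + 1) was fitted for all 4 groups in limma 3.58.1 (R 4.3.3) with a trended prior, with two-sided tests adjusted over 13915 genes by Benjamini and Hochberg's method, and genes passed at 0.05. Whole reads could be recovered, which the design had only allowed for, so edgeR 4.0.16 (5097 genes passed between genotypes with G-CSF) and DESeq2 1.42.0 (4733) were run beside limma (5013). Other pseudocounts, low-value filters and scalings, a fit of only the groups compared, a replicate block and leaving out each library in turn were also tried. Scripts were tested on simulated data.

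The members and gene lists were chosen with earlier results of these data known, so no adjusted p is given for a member. The adjusted p-values printed for pathway genes come from the fit over all genes and carry the same limit. Genes named from the pathway lists were, per comparison, the 4 largest rises and falls past 0.05 whose higher group averaged 50 or more. For LysMcre replicate 2 without G-CSF, numbered 3 in its column name, the number in the title was taken. The table also held 2 columns without a sample, which were not used. Replicates were distinct beyond counting error (chi-square per row 3.55 to 12.87) and correlated within groups at 0.988 to 0.993. Counting intervals and floors of 3 reads cover counting error only. Promoters come from RefSeq (GRCm38.p6), positions and lengths from GENCODE release M21. The result of 1 listed marker gene is not reported here.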

Additional observations from a re-analysis of the deposited data

Results flagged for a closer look

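These genes responded to G-CSF differently in the 2 genotypes, by the test of the difference between the responses in limma over all genes. The value is the log2 difference with G-CSF in LysMcre cells minus that in floxed cells. Among the members it was 0.857 for Nos2, 0.779 for Odc1, 0.717 for Smox, 0.597 for Amd1, 0.432 for Azin1 and 0.359 for Arg2; that of Nos2 rests on 14 untreated reads in LysMcre and 4 in floxed cells. Among the other pathway genes it was 1.468 for Slc3a2 (adjusted p = 4.74e-08), 0.913 for Aldh18a1 (0.00012), 0.776 for Slc7a6 (0.0352) and 0.660 for Eif5a (6.83e-05). It was negative for Aldh4a1 at -0.848 (adjusted p = 0.00173), for Atp13a2 at -0.689 (0.000142) and for Oaz2, a second antizyme, at -0.329 (0.022). Oaz2 had 2433 normalized counts in LysMcre and 3062 in floxed cells with G-CSF, against 1939 and 1941 in LysMcre and floxed cells without it.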

How the results depend on the processing

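For genotype with G-CSF, 381 of 396 values of the members and the named pathway genes kept direction and side of the threshold over the alternatives and 15 came to pass. Of all pathway genes 13 passed with equal totals (6 higher, 7 lower) and 12 to 16 when each library was left out in turn, against 15 (9 and 6), and 6 to 7 members passed when each was left out. For G-CSF in LysMcre cells 394 of 396 and in floxed cells 395 of 396 kept both, with 8 members and 27 to 30 or 22 to 27 pathway genes passing without each library. The exceptions were Sat1 in LysMcre cells, which turned to -0.196 with equal totals and -0.334 after quantile normalization, and in floxed cells, at -0.221 after quantile normalization. Without G-CSF the 1 member called, Nos2, fell to 0 under a pseudocount of 4, quantile normalization, edgeR, DESeq2 and a fit of only the 2 groups, and ranged from 0 to 1 without each library; 0 pathway genes passed in each of these runs. For the difference between responses 31 of 357 values no longer passed and 2 came to pass; 5 to 6 members and 5 to 11 pathway genes passed without each library, the 5 without LysMcre replicate 3 with G-CSF, against 9 (6 larger and 3 smaller in LysMcre cells; 3 and 8 with equal totals). Slc7a6 did not pass there in 10 alternatives (0.608 to 0.798) and Oaz2 in 5. The cause was not tested. With the replicate number as a block, 7, 1, 8, 8 and 5 members and 15, 0, 29, 23 and 9 pathway genes passed in the order genotype with and without G-CSF, G-CSF in LysMcre, G-CSF in floxed, difference of responses. Same-numbered libraries deviated with r of -0.178 to 0.321 (over 0.1 in 4 of 18 pairs) and differently numbered ones with -0.282 to 0.196. Between floxed libraries with and without G-CSF, same numbers gave 0.321, 0.199 and 0.061 and other numbers -0.282 to 0.152. In LysMcre libraries same numbers gave 0.214, -0.032 and 0.030 and other numbers -0.179 to 0.163. Whether the numbers pair treated with untreated libraries cannot be told from these values. Depth limits Nos2 and Arg1 without G-CSF, where 3 reads were worth 2.57 to 3.54 normalized counts.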
